A study of Mus musculus with 8 samples.

Results

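DNA methylation writers and erasers were taken as 10 named mouse genes, found by symbol among the 36255 gene symbols of the count table. All 10 were present, and all 10 passed the filter on low counts, which kept 16542 genes. They comprise the de novo DNA methyltransferases Dnmt3a and Dnmt3b with their catalytically inactive cofactor Dnmt3l, and the maintenance methyltransferase Dnmt1 with Uhrf1 and its relative Uhrf2. The set is completed by the dioxygenases Tet1, Tet2 and Tet3 and the DNA glycosylase Tdg. They were chosen by name and function, with no threshold on a measured value, although earlier results of these data were known.

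In mammals a methyl group is placed on cytosine, mostly where a guanine follows, by de novo enzymes, and it is copied onto the new strand after replication by DNMT1, which UHRF1 brings to hemimethylated sites. TET enzymes oxidise methylcytosine, and TDG excises the more oxidised forms so that base excision repair can put back plain cytosine. On the way from the naive state to the post-implantation epiblast of the mouse the genome is remethylated while the de novo enzymes are strongly induced.

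The study compared mouse cells with and without a working Skp1a gene, which encodes the adaptor that joins F-box proteins to the SCF ubiquitin ligase, under a title on SKP1A and the loss of PRC2, a Polycomb complex. Poly(A)-selected RNA of 8 libraries was sequenced in 4 groups of 2 libraries each. These were embryonic stem (ES) cells titled Skp1a fl_fl, here called fl/fl, ES cells titled Skp1a KO, and day 2 embryoid bodies (EBd2) of either genotype. Embryoid bodies are floating clumps of ES cells at the start of differentiation. Both stages were kept in standard medium for ES cells and embryoid bodies, and the sources used here do not give strain, sex, clone or the way the floxed allele was deleted. Groups follow the sample titles, because the tissue field splits the libraries by genotype (stem cells for KO, embryoid bodies for fl/fl) and not by the stage in the title. Libraries carry lot numbers 1, 2 or 12. Fl/fl ES cells and KO EBd2 hold lots 1 and 2, and KO ES cells and fl/fl EBd2 hold lots 1 and 12. Each genotype or stage comparison, and their interaction, thus also sets lot 2 against lot 12. Nothing says whether lots are separate cultures. The p-values therefore rest on library-to-library spread alone, and that spread may be technical.

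Total counts ran from 21545868 to 23343471 per ES cell library and from 7858452 to 10055667 per EBd2 library. Skp1a, checked first, stood at 420 and 430 CPM (reads per gene after scaling all libraries to one size with TMM factors) in fl/fl ES cells, while both KO ES cell libraries were lower, with 369 and 361. The EBd2 values were 401 and 389 for fl/fl and 286 and 290 for KO, a log2 difference of -0.46 ± 0.04. The transcript was thus lower in the libraries labelled KO but far from absent, and the table does not show which exons the reads came from, so "KO" below stands for the label. Differences are log2 values of KO minus fl/fl, or of EBd2 minus ES cells, ± the standard error (SE), with n = 2 libraries per group throughout. A gene was called where the adjusted p of edgeR's quasi-likelihood test (Benjamini-Hochberg over all 16542 genes) was below 0.05.

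Fl/fl EBd2 differed from fl/fl ES cells at every one of the 10 genes. Of the 10, 4 rose (Dnmt3a, Dnmt3b, Tet3 and Tdg) and 6 fell (Dnmt1, Dnmt3l, Uhrf1, Uhrf2, Tet1 and Tet2). Over all genes tested 59% were called in this comparison, 28.9% higher and 30.1% lower. In KO cells the same step gave 8 calls, 4 higher and 4 lower, where 64.8% of all genes were called, 31.7% higher and 33.1% lower. Between genotypes, 7 of the 10 were lower in KO ES cells and none was higher. The same number, all lower, had an unadjusted p below 0.05, and DESeq2 gave 7 calls. Of all genes tested 23.7% were called in this comparison, 10.9% higher and 12.8% lower. In EBd2 9 of the 10 were called, 7 lower and 2 higher in KO (5 and 2 when libraries were scaled by their totals alone, where Dnmt1 and Dnmt3l lost the call), against 62.2% of all genes, 31.5% lower and 30.7% higher. The share called in EBd2 is therefore to be read against a background in which most genes were called, and the sizes of the changes carry more of the description than their number. At least 2-fold differences between genotypes were found for 2 members in EBd2 (Dnmt3a and Dnmt3b), where 21.1% of all genes reached that size, and for no member in ES cells, where 1.24% did. Between stages 4 members changed at least 2-fold in fl/fl (Dnmt3a, Dnmt3b, Tet2 and Tet3), against 17% of all genes, and 2 in KO (Tet1 and Tet3), against 19.6%.

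**Figure D1:**
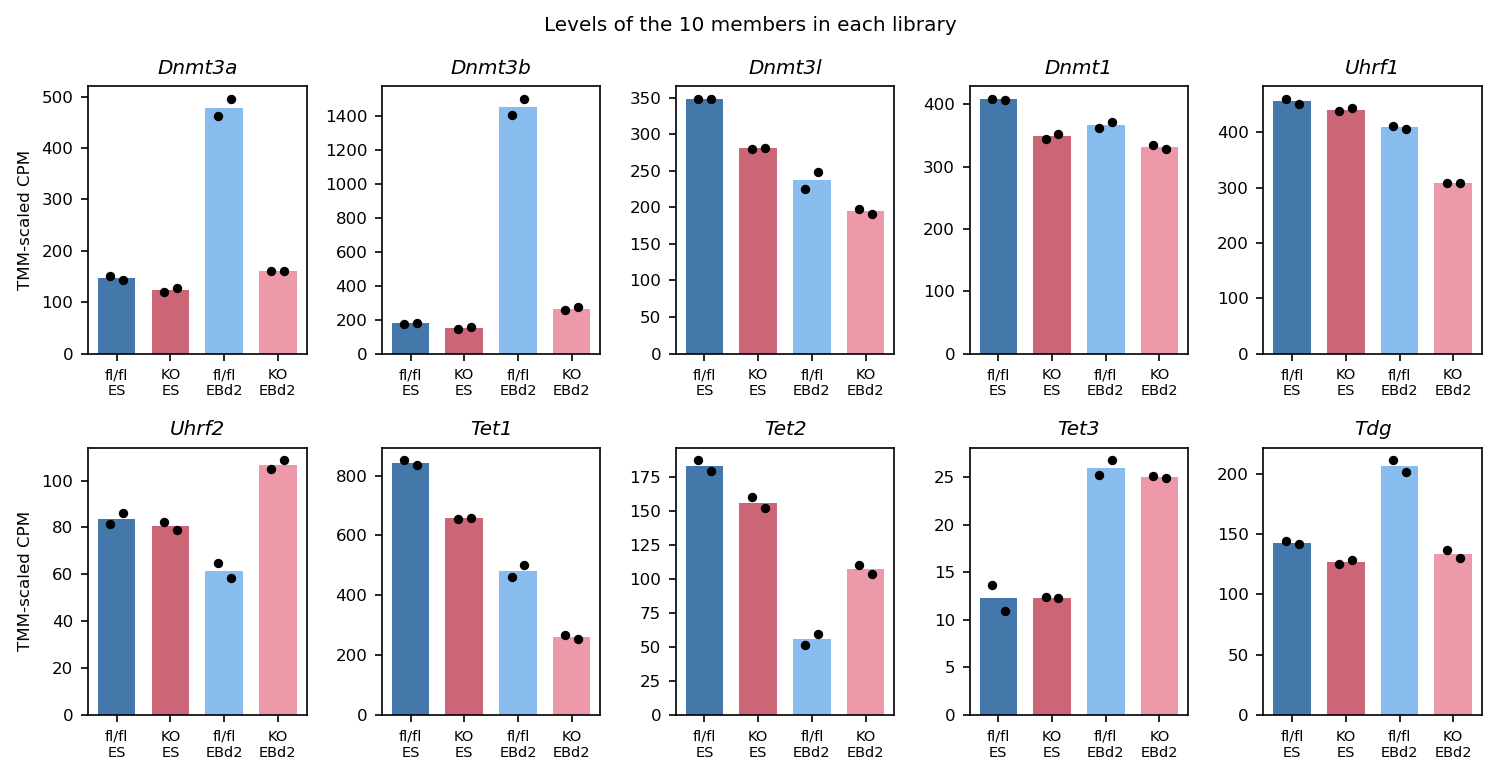
Levels of the 10 genes in CPM (linear vertical axes starting at 0, one panel per gene) in the 4 groups, with a point per library and a bar at the mean of 2 libraries. Dnmt3b reached 1405 and 1499 CPM in fl/fl EBd2 and stayed between 146 and 272 CPM in the other 6 libraries.

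Dnmt3b and Dnmt3a, the enzymes that set methylation on unmethylated DNA, had the widest range of the 10 as a ratio of the highest to the lowest library. Dnmt3b lies on chr2:153649450-153687730 on the plus strand and Dnmt3a on chr12:3806007-3914443 on the plus strand (GRCm38, GENCODE annotation). Both start in GC-rich DNA: the window from 250 bases before to 50 bases after the RefSeq start site (GRCm38.p6) held 30 CpG for Dnmt3b and 46 for the first of 3 Dnmt3a start sites. The median over 32851 such windows was 7, with quartiles of 3 and 20. High counts were not particular to this pair, with 57 CpG for Tet2 and 33 each for the third Dnmt1 and second Uhrf1 start sites. The third Dnmt3a window held 18, and the Dnmt3l windows held 3 to 6. The 250 bases before the Dnmt3b start and the first Dnmt3a start are shown. Capitals mark every match to the GC box GGGCGG or its reverse complement.
Dnmt3b, chr2:153649199-153649448, plus strand: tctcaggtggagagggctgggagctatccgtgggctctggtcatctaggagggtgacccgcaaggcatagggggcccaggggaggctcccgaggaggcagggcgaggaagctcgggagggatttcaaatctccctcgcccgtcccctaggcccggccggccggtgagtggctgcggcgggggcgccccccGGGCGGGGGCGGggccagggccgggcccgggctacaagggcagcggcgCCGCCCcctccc
Dnmt3a, chr12:3806730-3806979, plus strand: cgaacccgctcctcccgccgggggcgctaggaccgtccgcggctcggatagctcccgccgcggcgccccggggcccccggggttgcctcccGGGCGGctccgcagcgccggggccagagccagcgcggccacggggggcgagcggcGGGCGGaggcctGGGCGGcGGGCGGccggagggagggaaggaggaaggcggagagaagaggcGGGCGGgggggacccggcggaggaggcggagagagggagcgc
The GC box was chosen after these letters had been seen. It occurred 4 times in the Dnmt3b window and 6 times in the Dnmt3a window of 300 bases, and 35.7% of all windows held it at least once. A match describes the letters only.

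Dnmt3b stood at 175 and 181 CPM in fl/fl ES cells and at 146 and 154 CPM in KO ES cells. In fl/fl EBd2 it stood at 1405 and 1499 CPM. In KO EBd2 it reached 258 and 272 CPM. The rise from ES cells to EBd2 was thus seen in both genotypes, with no overlap between any 2 groups, but it ended at very different levels. On the log2 scale the rise was 3.03 ± 0.05 in fl/fl (adjusted p = 7.40e-12) and 0.82 ± 0.05 in KO (adjusted p = 5.35e-08). In EBd2 the KO level was 18.2% of the fl/fl level, a log2 difference of -2.45 ± 0.05 (adjusted p = 2.65e-11), and in ES cells it was 84.4%, a difference of -0.24 ± 0.05 (adjusted p = 0.00336). The genotype difference was larger in EBd2 than in ES cells by -2.21 ± 0.06 (interaction, adjusted p = 2.77e-09).

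Dnmt3a stood at 151 and 144 CPM in fl/fl ES cells and at 120 and 127 CPM in KO ES cells. Its level was 461 and 496 CPM in fl/fl EBd2. Both KO EBd2 libraries had 161 CPM. The KO embryoid bodies were therefore closer to fl/fl ES cells than to fl/fl embryoid bodies, although no 2 groups overlapped. The rise to EBd2 was 1.70 ± 0.04 in fl/fl and 0.39 ± 0.05 in KO (adjusted p = 2.48e-05). KO was lower by -0.26 ± 0.04 in ES cells (adjusted p = 0.00214) and by -1.57 ± 0.05 in EBd2 (adjusted p = 4.52e-10), where it held 33.7% of the fl/fl level. The interaction was -1.31 ± 0.06 (adjusted p = 6.12e-08). The table gives 1 value per gene, so the long and short Dnmt3a isoforms and the catalytic and inactive Dnmt3b isoforms cannot be told apart.

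Dnmt3l, the cofactor that stimulates both enzymes and is abundant in naive cells and germ cells, went the other way with stage. It stood at 348 and 349 CPM in fl/fl ES cells, 281 in both KO ES cell libraries, 225 and 249 in fl/fl embryoid bodies and 198 and 191 in KO EBd2. The 4 groups followed that order with no overlap. The fall with stage was -0.55 ± 0.04 in fl/fl and -0.53 ± 0.04 in KO, and the genotype difference was -0.31 ± 0.04 in ES cells (adjusted p = 0.000317) and -0.29 ± 0.05 in EBd2 (adjusted p = 0.000212). The interaction was not called (0.022 ± 0.061, adjusted p = 0.798). When libraries were scaled by their totals alone, which moved the median of all genes in EBd2 from 0.0040 to 0.23, the EBd2 call of Dnmt3l was lost (-0.06, adjusted p = 0.276) and its interaction was called (0.18, adjusted p = 0.0317). The calls and directions of Dnmt3a and Dnmt3b between genotypes held under that scaling.

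Levels of different genes were compared per kilobase of the union of annotated exons, which takes no account of which isoform is used. For Dnmt3a that union has 16642 bases and the longest transcript 9685, and for Dnmt3b 5106 and 4320. Ranks and ratios between genes therefore depend on the length used. In fl/fl ES cells Dnmt3l was highest with a mean of 117 CPM per kb, followed by Uhrf1 with 107, Dnmt1 with 55.2, Tet1 with 54.6, Dnmt3b with 34.9 and Tdg with 26.6. Lower levels per kb were found for Tet2 (10.9), Uhrf2 (9.74), Dnmt3a (8.86) and Tet3 (0.735). In fl/fl EBd2 Dnmt3b was highest by this measure with 275 and 294 CPM per kb, while in KO EBd2 it had 50.5 and 53.2, below Uhrf1 at 72.3 and 72.5 and Dnmt3l at 64.0 and 66.2. The ratio of Dnmt3b to Dnmt3a per kb lay between 3.78 and 4.11 in the 4 ES cell libraries, rose to 9.92 and 9.85 in fl/fl EBd2 and was 5.21 and 5.49 in KO EBd2. Dnmt3b thus gained on Dnmt3a in the embryoid bodies of both genotypes, more so in fl/fl.

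Dnmt1, the methyltransferase that copies methylation after replication (chr9:20907209-20959888, minus strand), moved within a narrow band. It stood at 409 and 406 CPM in fl/fl ES cells, 344 and 352 in KO ES cells, 362 and 371 in fl/fl embryoid bodies and 334 and 328 in KO EBd2. All 4 groups were apart, but the lowest library kept most of the level of the highest. KO was lower by -0.23 ± 0.03 in ES cells (adjusted p = 0.000519) and by -0.15 ± 0.03 in EBd2 (adjusted p = 0.00276). The EBd2 difference turned to 0.079 (adjusted p = 0.0595) when libraries were scaled by their totals alone and was not called among genes with a mean of at least 5 CPM (-0.07, adjusted p = 0.0874). It kept its direction and call with RLE size factors (-0.14) and with DESeq2. The step from ES cells to EBd2 was -0.15 ± 0.03 in fl/fl, and the step in KO was not called (-0.07 ± 0.03, adjusted p = 0.0688).

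Uhrf1 encodes the reader of hemimethylated DNA that recruits DNMT1 (chr17:56303321-56323486, plus strand). It stood at 461 and 451 CPM in fl/fl ES cells and at 439 and 444 CPM in KO ES cells. It stood at 412 and 406 CPM in fl/fl EBd2 and at 308 and 309 CPM in KO EBd2. The KO embryoid bodies stood lowest, well below the other 3 groups. The genotype difference in ES cells was not called (-0.05 ± 0.03, adjusted p = 0.286), and in EBd2 it was -0.41 ± 0.03 (adjusted p = 8.50e-07), with an interaction of -0.36 ± 0.04 (adjusted p = 5.54e-05). Per kb the ratio of Uhrf1 to Dnmt1 was 1.95 and 1.92 in fl/fl ES cells, 2.21 and 2.18 in KO ES cells, 1.97 and 1.89 in fl/fl embryoid bodies and 1.60 and 1.63 in KO EBd2. The 2 genes of the maintenance step therefore did not move in parallel: in ES cells labelled KO only Dnmt1 was called lower, and in EBd2 Uhrf1 fell by more.

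Both maintenance genes hold a close match to the E2F consensus near a start site. E2F factors drive genes of DNA replication. A match describes the letters only, and whether E2F factors act on these genes was not tested. The motif TTTCGCGC, searched on both strands (GCGCGAAA when read on the other) and chosen after the letters had been seen, occurred in 106 of 32851 promoter windows (0.323%). Among the 17 windows of the 10 members it occurred once each in a Dnmt1 and a Uhrf1 window, shown with the match in capitals (RefSeq start sites, GRCm38.p6).
Dnmt1, chr9:20952824-20952853, minus strand: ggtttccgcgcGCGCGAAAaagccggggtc
Uhrf1, chr17:56304117-56304146, plus strand: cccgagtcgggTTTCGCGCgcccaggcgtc
The Dnmt1 match begins 219 bases before the third of 3 start sites, inside annotated exon sequence, and the Uhrf1 match lies 185 bases before the second of 2, outside annotated exons. A list of 24 G1/S genes, many of them known E2F targets, summed to 5320 to 5407 CPM in fl/fl ES cells, 5219 to 5222 in KO ES cells, 5307 in both fl/fl EBd2 libraries and 4649 to 4721 in KO EBd2. Of these 24, 10 were called higher and 12 lower in KO EBd2, against 30.7% and 31.5% of all genes. A list of 22 G2/M genes went the other way, with 5330 to 5475 CPM in fl/fl EBd2, 7151 to 7225 in KO EBd2 and 19 genes called higher and 1 lower, and summed to 7283 to 7602 in the ES cell libraries. Whether cell cycle phase has a part in the Uhrf1 difference was not tested.

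Uhrf2, a relative of Uhrf1 that binds hydroxymethylated DNA and does not replace it in maintenance, showed the reverse pattern (chr19:30030513-30093722, plus strand). It stood at 81.4 and 86.0 CPM in fl/fl ES cells, against 82.5 and 78.9 in KO ES cells, which overlapped. It stood at 64.6 and 58.4 CPM in fl/fl EBd2 and at 105 and 109 CPM in KO EBd2. The fl/fl embryoid bodies were lowest and the KO embryoid bodies highest of the 4 groups. Stage changed Uhrf2 by -0.45 ± 0.06 in fl/fl and by 0.40 ± 0.05 in KO, so the direction of the step differed between genotypes (interaction 0.85 ± 0.08, adjusted p = 4.16e-06). KO exceeded fl/fl in EBd2 by 0.80 ± 0.06 (adjusted p = 3.94e-07), and no difference was called in ES cells (-0.05 ± 0.05, adjusted p = 0.466).

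**Figure D2:**
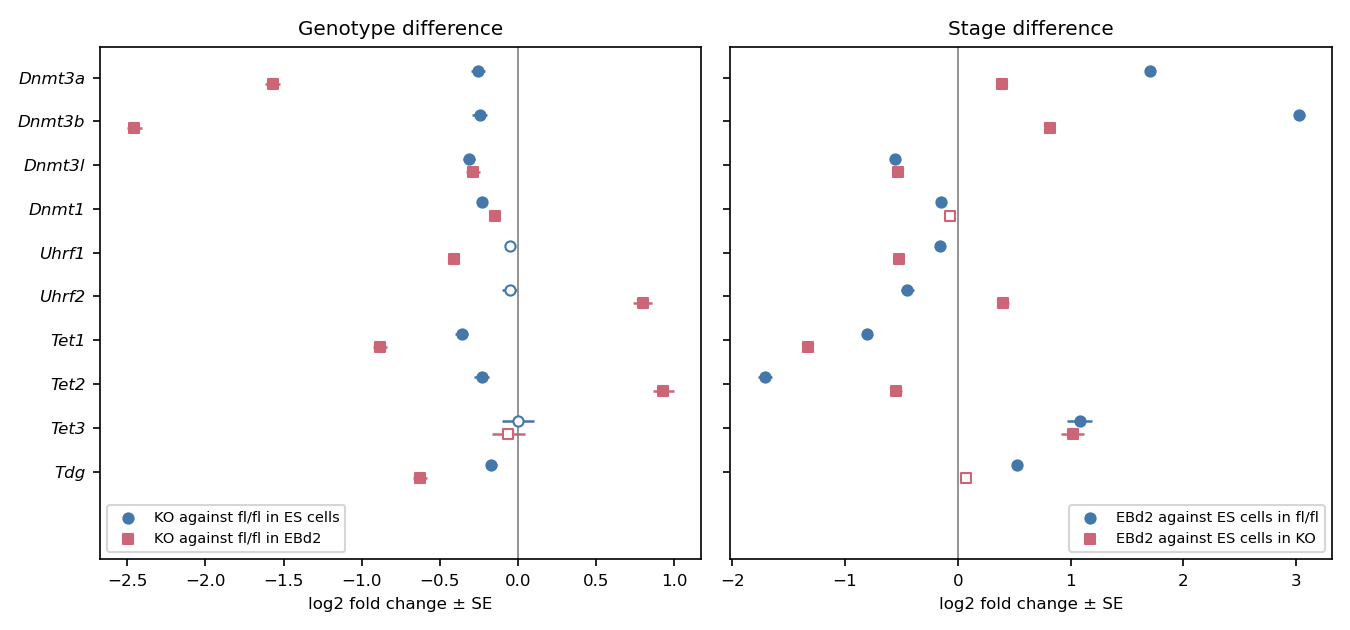
Log2 difference (horizontal axes) of each of the 10 genes between KO and fl/fl at each stage (left) and between EBd2 and ES cells in each genotype (right), with bars for the SE and open symbols for differences that were not called. On the left, Dnmt3b (-2.45) and Dnmt3a (-1.57) lie lowest in EBd2 and Uhrf2 (0.80) and Tet2 (0.93) are the genes called higher, while Dnmt1 in EBd2 (-0.15) turns to 0.079 with scaling by library totals alone.

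Tet1, the main TET dioxygenase of mouse ES cells (chr10:62804570-62908996, minus strand), fell in steps. It stood at 851 and 835 CPM in fl/fl ES cells and at 656 and 659 CPM in KO ES cells. It stood at 460 and 502 CPM in fl/fl EBd2 and at 268 and 255 CPM in KO EBd2. No groups overlapped, and KO was below fl/fl at both stages. The KO difference was -0.36 ± 0.04 in ES cells (adjusted p = 0.00017) and -0.88 ± 0.05 in EBd2 (adjusted p = 2.20e-08), with an interaction of -0.52 ± 0.06 (adjusted p = 3.24e-05). The fall with stage was -0.81 ± 0.04 in fl/fl and -1.33 ± 0.04 in KO. Of the 7 members lower in KO ES cells Tet1 had the largest log2 difference.

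Tet2, a TET enzyme of naive cells that is shut down as cells leave that state (chr3:133463679-133545139, minus strand), stood at 187 and 179 CPM in fl/fl ES cells against 160 and 152 in KO ES cells. It stood at 51.8 and 59.8 CPM in fl/fl EBd2 and at 110 and 104 CPM in KO EBd2. All groups were apart, with KO EBd2 between the ES cells and the fl/fl EBd2. The fall with stage was -1.71 ± 0.06 in fl/fl and -0.55 ± 0.05 in KO. KO was thus lower than fl/fl in ES cells (-0.23 ± 0.05, adjusted p = 0.00425) and higher in EBd2 (0.93 ± 0.07, adjusted p = 3.49e-07), with an interaction of 1.16 ± 0.08 (adjusted p = 7.72e-07). The ES cell call of Tet2 was lost without fl/fl ES lot 1 (adjusted p = 0.0577).

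Tet3, the TET enzyme best known from the zygote and from neural cells (chr6:83362373-83459084, minus strand), had the lowest level of the 10. It stood at 13.7 and 10.9 CPM in fl/fl ES cells, 12.4 and 12.3 in KO ES cells, 25.2 and 26.8 in fl/fl embryoid bodies and 25.1 and 24.9 in KO EBd2. The genotypes were close at each stage and overlapped in ES cells. Tet3 rose with stage by 1.08 ± 0.11 in fl/fl (adjusted p = 5.73e-06) and by 1.02 ± 0.10 in KO (adjusted p = 5.03e-06). The KO difference was not called in ES cells (0.0010 ± 0.10, adjusted p = 0.997) or in EBd2 (-0.06 ± 0.11, adjusted p = 0.647). Its summed counts, 419 to 542 per group, were the lowest of the 10 genes. Tet3 was the only member with no genotype call at either stage.

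Summed per kb, the 3 TET genes fell from 67.0 and 65.3 in fl/fl ES cells to 52.7 and 52.4 in KO ES cells, 34.4 and 37.6 in fl/fl embryoid bodies and 25.4 and 24.2 in KO EBd2. Tet1 made up 82.2% and 82.7% of that sum in fl/fl ES cells, 80.6% and 81.4% in KO ES cells, 86.7% and 86.3% in fl/fl EBd2 and 68.3% in both KO EBd2 libraries. The Tet2 share was 16.6% and 16.3%, 18.0% and 17.2%, 8.94% and 9.41%, and 25.7% and 25.5% in the same order. KO embryoid bodies thus had less TET transcript in sum and a larger share of Tet2 in it. The size of each share depends on the length used. For Tet2 the exon union has 16870 bases and the longest transcript 9179, and for Tet1 15457 and 14369. The ratio of the de novo enzymes Dnmt3a and Dnmt3b to the TET genes, per kb, was 0.646 and 0.676 in fl/fl stem cells against 0.681 and 0.722 in KO ES cells. The de novo enzymes summed to 303 and 323 CPM per kb in fl/fl EBd2 and to 60.2 and 62.9 in KO EBd2, and there the ratio was 8.82 and 8.59 in fl/fl embryoid bodies and 2.37 and 2.61 in KO EBd2. The balance of these transcripts therefore moved from the TET genes toward the de novo enzymes in both genotypes, and less far in KO. Dnmt1 and Dnmt3l are not part of this ratio. These are transcript levels, and neither protein nor DNA methylation was analysed here.

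**Figure D3:**
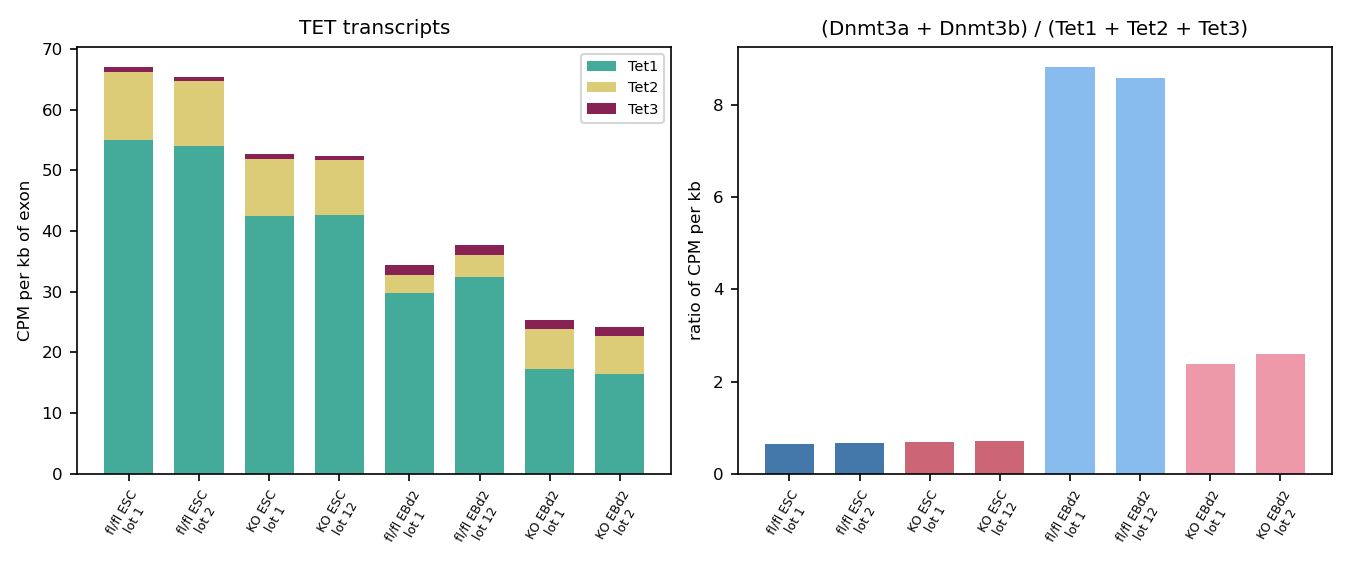
Left, stacked bars of Tet1, Tet2 and Tet3 in CPM per kb of exon, with a bar per library. Right, the ratio of Dnmt3a plus Dnmt3b to the 3 TET genes per kb in the same libraries, which is highest in the fl/fl embryoid bodies (8.82 and 8.59), followed by the KO embryoid bodies (2.37 and 2.61).

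Tdg, the glycosylase that removes oxidised methylcytosine and thymine paired with guanine (chr10:82629828-82650799, plus strand), stood at 144 and 141 CPM in fl/fl ES cells against 126 and 128 in KO ES cells. It stood at 211 and 201 CPM in fl/fl EBd2 and at 137 and 130 CPM in KO EBd2. The fl/fl embryoid bodies stood above the other 3 groups. Tdg rose with stage in fl/fl by 0.53 ± 0.04 (adjusted p = 5.10e-07), and the step in KO was not called (0.07 ± 0.04, adjusted p = 0.143). The KO difference was -0.17 ± 0.04 in ES cells (adjusted p = 0.00747) and -0.63 ± 0.04 in EBd2 (adjusted p = 1.77e-07), with an interaction of -0.46 ± 0.06 (adjusted p = 5.02e-05). The ES cell call was lost on scaling by library totals alone, on thinning all libraries to the smallest, and without fl/fl ES lot 1, fl/fl ES lot 2 or KO ES lot 1 (adjusted p up to 0.0841).

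Of the 10 genes, 7 had a called interaction, where 48% of all genes did, 22.4% positive and 25.7% negative. It was negative for Dnmt3a, Dnmt3b, Uhrf1, Tet1 and Tdg and positive for Uhrf2 and Tet2, and it was not called for Dnmt1, Dnmt3l and Tet3, of which Dnmt1 and Dnmt3l were called with scaling by library totals alone. The libraries of fl/fl and KO did not overlap for 8 members in ES cells and for 10 in EBd2, against 64.6% and 79.7% of all genes. Between stages no member overlapped in either genotype, against 78.9% of all genes in fl/fl and 83% in KO. The members' median difference was -0.23 in ES cells, where that of all genes was 0.0043, and -0.35 in EBd2, where it was 0.0040. Reads from near-identical relatives were few. The rodent gene Dnmt3c, a duplicate of Dnmt3b, had 1 to 5 counts per library, and 4 pseudogenes of Dnmt3a, Dnmt3l and Tdg had 0 to 9. The sources used here do not say how reads that match several places were counted.

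Markers of cell state and the mitochondrial share of counts also differed between the groups. That share was 1.73% and 1.76% in fl/fl ES cells, 2.42% and 2.43% in KO ES cells, 2.28% and 2.70% in fl/fl embryoid bodies and 3.15% and 3.24% in KO embryoid bodies, and its part in the differences was not tested. A list of 16 formative and primed epiblast genes, from which the members were removed, summed to 650 to 660 CPM in fl/fl ES cells, 600 to 603 in KO ES cells, 1560 to 1639 in fl/fl EBd2 and 785 to 798 in KO EBd2. In KO EBd2 3 of these 16 were higher and 13 lower (median -1.14), against 30.7% and 31.5% of all genes. A list of 16 naive pluripotency genes, without Tet2, summed to 5255 to 5345, 4789 to 4917, 2123 to 2261 and 2716 to 2850 CPM in the same order of groups. This list was split in KO EBd2, with 8 of the 16 called higher and 5 lower (median 0.57). Dnmt3a and Dnmt3b had the same order of the 4 groups as the epiblast sum, and Tet2 the same order as the naive sum. In these bulk libraries fewer cells of a type and less RNA per cell cannot be told apart.

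Markers of other cells were also higher in KO EBd2, where 30.7% of all genes were called higher and 31.5% lower. Primitive and visceral endoderm genes (16 listed) summed to 727 to 768 CPM in the ES cell libraries, 1062 to 1145 in fl/fl EBd2 and 3418 to 3500 in KO EBd2, with 14 of 15 tested called higher and 1 lower. Trophectoderm genes (12 listed) summed to 298 to 336, 308 to 318 and 818 to 836 CPM, with 9 of 11 tested higher and 1 lower. Streak and mesoderm genes (13 listed) summed to 27.0 to 32.8, 24.8 to 25.6 and 211 CPM, with 7 of 11 higher. Eomes and Cdx2 are on both this list and the trophectoderm list, so the lists are not separate. Fibroblast feeder genes (19 listed) were most abundant in ES cells, at 2873 to 3105 CPM, and summed to 879 to 938 in fl/fl EBd2 and 1307 to 1422 in KO EBd2, where 16 of 18 tested were called higher. The 11 genes of the two-cell-like list found in the table summed to 8.84 to 14.5 CPM in ES cells, 10.6 to 13.4 in fl/fl EBd2 and 83.9 to 90.7 in KO EBd2, and Tcstv3, Zfp352 and Duxf3 had no counts in fl/fl EBd2. The part that a changed mix of cells has in the differences of the 10 genes was not tested.

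Partners of these genes were taken from lists drawn up by function. Counts for EBd2 are given first, since those in ES cells moved by more than 1.5 times when single libraries were left out. The maintenance list holds cofactors of DNMT1 and UHRF1 and further genes such as Smchd1. Of its 9 genes, 7 were lower and 2 higher in KO EBd2 (median -0.64), against 31.5% and 30.7% of all genes. Cdca7, an activator of the remodeller HELLS, changed by -1.19 ± 0.05, its relative Cdca7l by -1.05 ± 0.07, the deubiquitinase Usp7, which stabilises UHRF1 and DNMT1, by -0.64 ± 0.03, and the X-inactivation factor Smchd1 by -0.64 ± 0.04. The PCNA-associated factor Pclaf, whose ubiquitinated form brings DNMT1 to replicating DNA, rose by 0.44 ± 0.05 in EBd2 and by 0.55 ± 0.04 in ES cells (adjusted p = 1.69e-05). Dppa3, which keeps UHRF1 off chromatin and is also on the naive list, was named after its values were seen and changed by -0.68 ± 0.09.

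**Figure D4:**
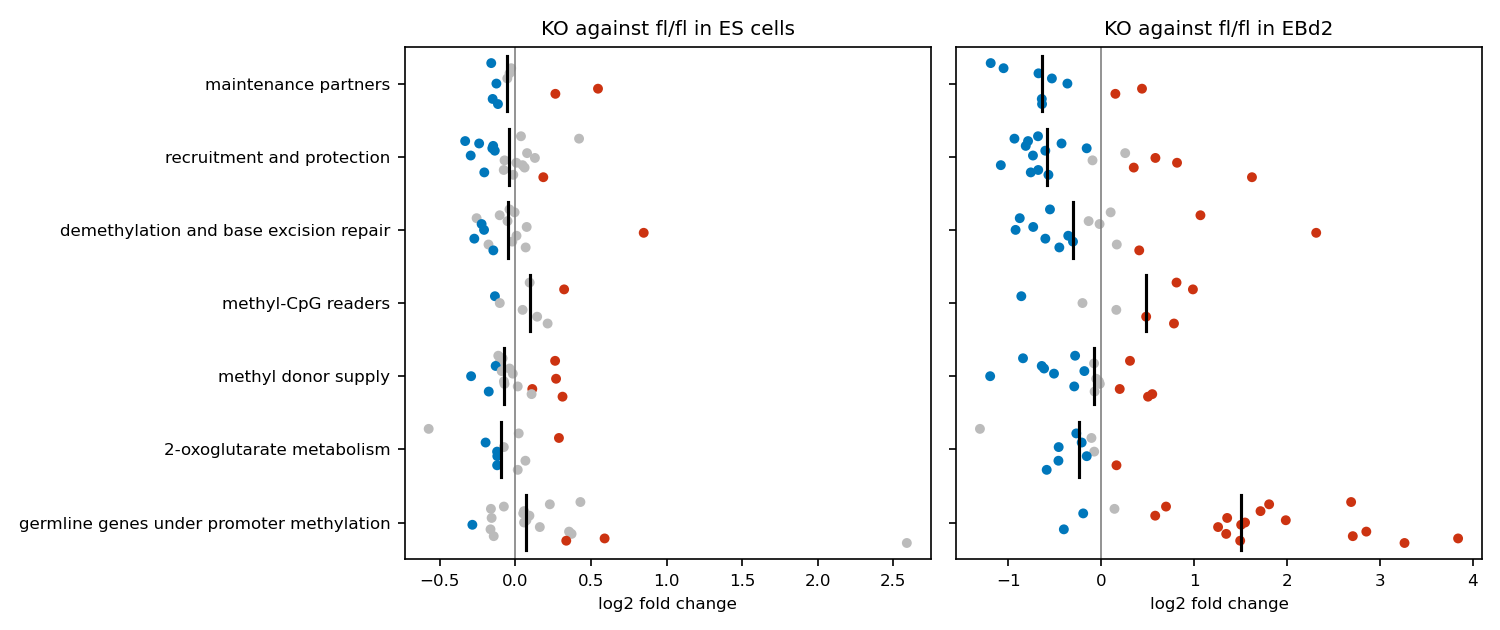
Log2 difference between KO and fl/fl of each gene in the 7 lists of partner genes, in ES cells and in EBd2, with called genes in red (higher) or blue (lower), other genes in grey and the list median as a black line. The median of the germline list is 1.51 in EBd2, and those of the maintenance and recruitment lists are -0.64 and -0.59.

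In the list of factors that direct or protect methylation, 12 of 18 genes were lower and 4 higher in KO EBd2, with a median of -0.59. The shares of all genes were 31.5% lower and 30.7% higher. Zfp57, which guards methylation at imprinted regions, rose by 1.62 ± 0.05, from a mean of 88.7 to 273 CPM. Its corepressor Trim28 changed by -0.76 ± 0.03 and Qser1, which shields bivalent promoters from methylation, by -1.08 ± 0.05. Nsd1, the histone methyltransferase whose mark draws DNMT3A, changed by -0.74 ± 0.04. Zfp57 and Trim28, known to act as a pair, therefore moved in opposite directions. Prdm14, a repressor of Dnmt3b in naive cells, was named after its values were seen and was higher in KO EBd2 by 0.82 ± 0.15 (adjusted p = 0.000736), at 9.90 and 8.14 CPM against 5.40 and 4.85 in fl/fl.

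Among 15 genes of demethylation and base excision repair, 8 were lower and 3 higher in KO EBd2 (median -0.30), near the 62.2% of all genes called. With scaling by library totals alone 6 were lower and 6 higher, so the balance of this list rests on the scaling. The strand-break sensor Parp1 changed by -0.60 ± 0.03, the endonuclease Apex1 by -0.55 ± 0.04 and the uracil glycosylase Ung by -0.45 ± 0.05. The glycosylase Neil3 rose by 2.31 ± 0.14 in EBd2, from 7.78 to 38.3 CPM, and by 0.85 ± 0.11 in ES cells (adjusted p = 0.000345). Neil3 and Tdg, both glycosylases, thus went opposite ways.

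Of 7 methyl-CpG readers, 4 were higher and 1 lower in KO EBd2 (median 0.48), a number called that is also near the 62.2% of all genes. Mbd2 rose by 0.99 ± 0.10, Mbd1 by 0.81 ± 0.08 and Zbtb38 by 0.48 ± 0.09, all repressors that bind methylated DNA. Mbd3, a NuRD subunit that hardly binds methylated DNA in mammals, changed by -0.86 ± 0.05.

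The metabolic lists hold genes that supply substrates of these enzymes. Of 17 genes of methyl donor supply 8 were lower and 4 higher in KO EBd2 (median -0.08), and of 10 genes of 2-oxoglutarate metabolism, the cosubstrate of TET enzymes, 6 were lower and 1 higher (median -0.24). Over all genes 31.5% were lower and 30.7% higher, so the shares called in both lists were near the background of 62.2%. With library totals alone these counts became 5 lower and 7 higher, and 3 lower and 3 higher. The mitochondrial folate enzyme Mthfd1l changed by -1.20 ± 0.05, Amd1, which uses S-adenosylmethionine for polyamines, by -0.84 ± 0.04, and the glycine decarboxylase Gldc by -0.64 ± 0.04. The threonine dehydrogenase Tdh, which feeds S-adenosylmethionine synthesis in mouse ES cells, was higher by 0.55 ± 0.04. In the 2-oxoglutarate list Psat1 changed by -0.59 ± 0.04, Idh3a by -0.46 ± 0.05 and Idh2 by -0.21 ± 0.05, which became 0.016 with library totals alone.

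Germline genes whose promoters are known to be silenced by DNA methylation had the largest median of the 7 lists. Of 20 listed genes 19 were tested, and in KO EBd2 16 were higher and 2 lower, against 30.7% and 31.5% of all genes. The median was 1.51 where all genes had 0.0040. The marker lists of endoderm, trophectoderm, streak, feeder and two-cell-like genes had higher medians in KO EBd2, from 1.67 to 3.11. That of the naive list was 0.57. In fl/fl cells 12 of the 19 germline genes fell and 1 rose from ES cells to EBd2 (median -0.74). In KO cells 3 fell and 12 rose (median 0.49). Over all genes 30.1% fell and 28.9% rose in fl/fl, and 33.1% fell and 31.7% rose in KO. Tex11, a meiotic recombination factor, stood at a mean of 3.12 CPM in fl/fl EBd2 and 44.6 in KO EBd2, a difference of 3.84 ± 0.14. Taf7l, a germ cell subunit of TFIID, differed by 2.85 ± 0.18 and Hormad1, a protein of the meiotic chromosome axis, by 1.71 ± 0.11. Tuba3a stood at 282% of its fl/fl level, but its near-identical copy Tuba3b makes its counts uncertain. The 2 lower genes, named after their values were seen, were Sycp3 (-0.40) and Hsf2bp (-0.19, adjusted p = 0.042). With RLE size factors and with DESeq2 1 of the 19 was lower, and with library totals alone 0 were, while 16 were higher each time. In ES cells 2 of the 19 were higher and 1 lower, against 10.9% and 12.8% of all genes. There Tex11 was higher by 0.59 ± 0.11 (adjusted p = 0.00248), a call that was lost when libraries were thinned to the smallest (adjusted p = 0.0793). Two-cell-like markers, which were called higher for 10 of 10 genes tested, moved in the same libraries, and methylation of these promoters was not analysed here.

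In ES cells 2 genes were higher and 4 lower in the maintenance list, 1 and 7 in the recruitment list, 1 and 4 in the repair list, 1 and 1 among readers, 4 and 3 in the methyl donor list and 1 and 4 in the 2-oxoglutarate list. These totals, with that of the germline list, dropped to as few as 2, 4, 2, 0, 3, 2 and 1 calls in the same order. The lowest values came without fl/fl lot 2 or KO lot 1 for maintenance, either fl/fl library for recruitment and any of the 4 for repair. They came without KO lot 12 for readers, fl/fl lot 1 for methyl donors, any of the 4 for 2-oxoglutarate, and fl/fl lot 2 or either KO library for germline genes. No direction is given for the lists in ES cells on that account. Of all genes 10.9% were called higher and 12.8% lower there.

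Genes with the most similar profile over the 8 libraries were named by a fixed rule, as the 4 highest Pearson r of log2 CPM among 10956 genes with a mean of at least 5 CPM. For Dnmt3b these were Slc38a2, Sfpq, Pim2 and Ppp4r1, with r from 0.998 to 0.999. For Dnmt3a they were Usp7, Myef2, Txnrd1 and Arhgdia, with r from 0.997 to 0.999. Pim2 had 28.6 CPM in fl/fl ES cells, 22.6 in KO ES cells, 240 in fl/fl EBd2 and 45.2 in KO EBd2 (means), close in shape to Dnmt3b. For Dnmt3l the nearest were Ddit4, Alkbh5, Slk and Pgam1, and for Uhrf1 they were Dcaf13, Hltf, Dact3 and Prmt7. High r was common over these 8 libraries, which form 4 groups: 8.13% of the candidates had an r over 0.9 with Dnmt3b, 7.75% with Dnmt3a, 9.26% with Dnmt3l and 12.9% with Uhrf1.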

How the data were processed

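RNA-seq of 8 libraries, 2 in each of 4 groups of genotype and stage, was used, with groups taken from the sample titles. The authors deposited 1 table of raw counts of reads per gene symbol, with no normalization. Trim Galore 0.6.7 and the build names GRCm38 and mm10 appear in the submitters' processing notes. Aligner, counter, annotation, strand setting and the handling of multiply matching reads: not given in the sources used here. Among 36255 genes 9800 were at 0 in all libraries.

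The tests used edgeR 4.0.16 in R 4.3.3. Genes were filtered with filterByExpr, libraries were scaled by TMM, and 4 group means were fitted to all 8 libraries (glmQLFit and glmQLFTest, two-sided). Benjamini-Hochberg adjustment ran over all 16542 genes tested, with a threshold of 0.05, for 5 contrasts. With 4 residual degrees of freedom, the common biological coefficient of variation came to 3.4%. Total counts per library ran from 7858452 to 23343471 and were lower in EBd2. The SE of the genotype difference was 0.046 at both stages for Dnmt3b. For Tet2 it was 0.046 in ES cells and 0.069 in EBd2. SE is the absolute log2 difference divided by the square root of the F statistic. Libraries of the same group differed by more than sampling noise (chi-square per gene from 2.14 to 2.90) and were counted separately. The script was tested on simulated data. Figures were drawn with matplotlib 3.10.9.

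The 10 members and all lists were chosen with earlier results of these data known. Named were all members and Skp1a, up to 4 called genes per partner list with the smallest p in EBd2, list genes called in ES cells with an absolute log2 difference of at least 0.5, and the 4 most similar genes of Dnmt3a, Dnmt3b, Dnmt3l and Uhrf1. One gene that this rule names is not reported here. All 10 members matched RefSeq promoter windows by symbol (17 windows), and gene positions are those of GENCODE on GRCm38. Alternatives were another scaling (RLE or library totals), other filters, thinning to 7858452 counts, a fit of the compared libraries only, a test beyond 1.5-fold (glmTreat), DESeq2 1.42.0, lots as a replicate block and leaving out each library. List counts under these settings and levels per kb were added after the data had been seen.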

Additional observations from a re-analysis of the deposited data

Results flagged for a closer look

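The KO against fl/fl difference was not the same in ES cells and EBd2 for 7 of the 10 genes, by the interaction test of edgeR (48% of all genes were called by it). The difference in EBd2 minus that in ES cells was -2.21 ± 0.06 for Dnmt3b, -1.31 ± 0.06 for Dnmt3a, -0.52 ± 0.06 for Tet1, -0.46 ± 0.06 for Tdg and -0.36 ± 0.04 for Uhrf1, on the log2 scale ± SE. It was 1.16 ± 0.08 for Tet2 and 0.85 ± 0.08 for Uhrf2. Among the 7, Tet2 is the gene with called genotype differences of opposite sign at the 2 stages. With 2 libraries per group, no test for an outlying value within a group could be made, and the effect of leaving out each library is given with the other settings.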

How the results depend on the processing

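Over 790 comparisons of a member with an alternative, 773 kept the side of the threshold without a reversal, 8 lost the call, 8 gained it and 1 reversed. A change of sign counted as a reversal only where a call was involved. Uncalled differences could change sign and still be among the 773, as for Uhrf1 (-0.048, up to 0.023) and Uhrf2 (-0.052, up to 0.024) in ES cells. For the other named genes it was 2273 of 2370, with 67 lost, 27 gained and 3 reversed. These counts leave out the test beyond 1.5-fold. The reversals came with scaling by library totals alone, which moves the median of all genes to 0.075 in ES cells, 0.23 in EBd2 and 0.14 for stage in KO: Dnmt1 in EBd2 (0.079), Idh2 in EBd2 (0.016), and Trim28 (0.089) and Nsd1 (0.10) for stage in KO. That scaling also moved the split of all genes from 1806 higher and 2120 lower to 2819 and 1089 in ES cells, and from 5072 and 5217 to 7075 and 3345 in EBd2. For stage in KO it moved it from 5248 and 5473 to 6665 and 4106, and for the interaction from 3704 and 4244 to 5008 and 2992. Among members it left 6 calls in ES cells and 7 in EBd2.

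The test beyond 1.5-fold left 0 members in ES cells, 5 in EBd2, 5 and 3 for stage in fl/fl and KO, and 4 for the interaction. Over all genes it left 17, 3910, 3043, 3733 and 2331 in the same order. In ES cells the 3926 calls over all genes became 2072 after thinning and 1909 to 3958 without single libraries, lowest without fl/fl ES lot 2. Member calls without single libraries were 5 to 7 in ES cells and 9 in EBd2. Counts of called genes in the partner lists in EBd2 stayed within 1.5 times, except that beyond 1.5-fold the germline list alone did (14 higher of 19).

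With lots as a replicate block, 7 members were called in ES cells and 9 in EBd2, as without it, and 2236 of all genes in ES cells. The interaction was called for 7 members, as without the block, and for 5619 of all genes instead of 7948. Over 8 pairs with the same lot number, the correlation of deviations from the group means ran from -0.022 to 0.018. With 2 libraries per group the deviations within a group mirror each other. The check therefore cannot decide whether libraries of the same lot number share a culture or batch.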
